A study of Homo sapiens with 3 samples.

Results

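The 34 genes described here are transcriptional targets of the tumor suppressor p53 whose main roles lie outside the direct death receptor and BCL2-family arm of apoptosis. They were chosen by name, with earlier results of these data known. They cover cell cycle arrest (7 genes), feedback on p53 and survival (8 genes), DNA repair and nucleotide supply (6 genes), redox control, metabolism and mitochondria (8 genes) and a mixed group of secreted, receptor, RNA-binding and other proteins (5 genes). All 34 had a probe among the 22435 named genes of the array, and 33 of them were well above background on at least 1 array; CMBL, a hydrolase, was below background on all 3. A549 is a human lung adenocarcinoma cell line. Total RNA was taken from cells kept for 48 h with 0.1% DMSO (control), with 60 μg/mL cordycepin, which is 3'-deoxyadenosine, or with 100 μg/mL cordyceps, named as such in the labels with no composition. All cells, controls included, grew in DMEM that held zinc sulfate at 16.7 μM, troglitazone at 10 μM and nicotinamide at 10 mM beside 10% serum and 1% of the usual antibiotics. By the labels and the files each condition was hybridized to 1 Agilent array with Cy3 alone, whereas the study's methods speak of Cy3 for vehicle and Cy5 for cordycepin RNA; the files hold no Cy5 signal and were read as single-color. No difference below has a replicate check or a test.

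p53 is a transcription factor that is kept scarce by the ubiquitin ligase MDM2 and accumulates when DNA is damaged or transcription is disturbed. It binds a DNA element made of paired half-sites and switches on genes that stop the cell cycle, repair DNA, supply nucleotides, adjust metabolism and, through MDM2 and PPM1D, turn p53 itself off again. The CDKN1A product p21 then holds the DREAM repressor complex on cell cycle genes, so that many of those genes fall when p53 is active.

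Promoter sequences from RefSeq (GRCh38.p14, from 250 bases before to 50 bases after each annotated start) were at hand for 26 of the 34 genes, in 36 windows. The p53 half-site, a consensus of 10 bases that reads the same on both strands, occurred in 6 of the 36 windows (16.7%) and in 2329 of all 35116 windows (6.63%). A full site, meaning a pair of half-sites with at most 13 bases between them, occurred in 1 member window, that of DDB2, and in 10 of all windows (0.0285%). The 6 matches are printed because they carry the letters of the consensus, shown in capitals; they are matches of sequence, and binding by p53 was not tested here.
DDB2, chr11:47214975-47215003, plus strand: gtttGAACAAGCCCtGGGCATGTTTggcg
FDXR, chr17:74872995-74873045, minus strand: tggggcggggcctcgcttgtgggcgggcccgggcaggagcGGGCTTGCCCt
SESN1, chr6:109008989-109009077, minus strand: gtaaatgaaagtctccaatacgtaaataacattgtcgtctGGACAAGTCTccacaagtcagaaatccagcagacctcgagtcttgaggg
AEN, chr15:88621266-88621339, plus strand: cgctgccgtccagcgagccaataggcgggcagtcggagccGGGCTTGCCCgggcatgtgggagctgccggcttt
PLK2, chr5:58460169-58460258, minus strand: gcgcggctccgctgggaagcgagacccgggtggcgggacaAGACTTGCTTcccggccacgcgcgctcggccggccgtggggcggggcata
RPS27L, chr15:63157487-63157576, minus strand: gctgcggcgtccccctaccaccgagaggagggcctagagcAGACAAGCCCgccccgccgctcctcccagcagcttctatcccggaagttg
The DDB2 site began at base 6 of the transcript, and the others began 11 bases (FDXR), 34 bases (AEN), 49 bases (SESN1), 59 bases (RPS27L) and 132 bases (PLK2) before the start. With cordycepin these 6 genes had log2 ratios from 0.22 for PLK2 to 1.20 for FDXR. CDKN1A, BTG2, TP53I3, APAF1 and GDF15 had windows without these letters, which says nothing of sites elsewhere; the known p53 sites of CDKN1A lie farther upstream.

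Signals are given below as the scanner software left them, background-subtracted and unscaled. Ratios are log2 differences after each signal was divided by the 75th percentile of its array, which was 260 on the control, 224 on the cordycepin and 260 on the cordyceps array, so that a ratio of cordycepin to control is larger than the raw signals give. The array detected 49% of its probes in control, 47.5% in cordycepin and 42.1% in cordyceps cells. On the cordyceps array 11.2% of the spots in 1 corner had outlying local background, against 0 on the other arrays; the brightest probes of PINCR, TP53TG1, RPS27L, SESN1, TP53I3 and ACER2 lie in that corner. All 9 epithelial markers of A549 cells, keratins, EPCAM and CDH1 among them, were detected on every array, with a summed signal from 729601 to 990157. Of 9 markers of blood, endothelial, stromal and liver cells, 4 were detected in control and cordycepin cells (PTPRC, CD14, VWF and CDH5). PTPRC and CD14 were also detected in cordyceps cells, and the 9 summed to 1784 to 3618. The brightest of the 9 had 3387 in control, 1559 in cordycepin and 2183 in cordyceps cells. That was above the dimmest epithelial marker, with 1066, 323 and 612 in the same order. CD3E, PECAM1, DCN, PDGFRB and ALB were below background on all arrays. As an estimate of technical error, the ratios of 2 probes for the same gene gave a standard deviation of 0.35 per probe with cordycepin and 0.34 with cordyceps over 3356 genes, and the scanner's own error model gave about 0.20 for a single ratio.

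With cordycepin, the listed p53 targets stood higher than in control cells as a group. Because the list was chosen with earlier results of these data known, the shares below describe it and do not test it. Of the 33 members detected, 9 were at least 2-fold higher (27.3%), against 5.95% of all 15917 genes measured, and 0 were at least 2-fold lower, against 3.57%. The 9 were PINCR, CDKN1A, TP53I3, FDXR, SESN1, RRM2B, BTG2, APAF1 and GDF15. In all, 31 members had a ratio above 0, as 45.5% of all genes did, and the median log2 ratio was 0.64 for the members and -0.05 for all genes. Of the 31, PLK2, PHLDA3, TP53TG1, TIGAR, ZMAT3 and DRAM1 fell below 0 at their lowest over the other ways of processing. Among these ZMAT3 went lowest, to -0.17. The number past 2-fold depended on the scaling: with each array scaled to its median or left unscaled it was 3 (CDKN1A, TP53I3 and PINCR), and the median of all genes then sat at -0.31 or -0.26. Relative to all genes the members' median was higher by 0.69, and by 0.55 to 0.78 over 11 other ways of processing. Outside the corner, 6 of 27 members were at least 2-fold higher and 0 lower, beside 6.1% and 3.52% of the genes there.

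**Figure D1:**
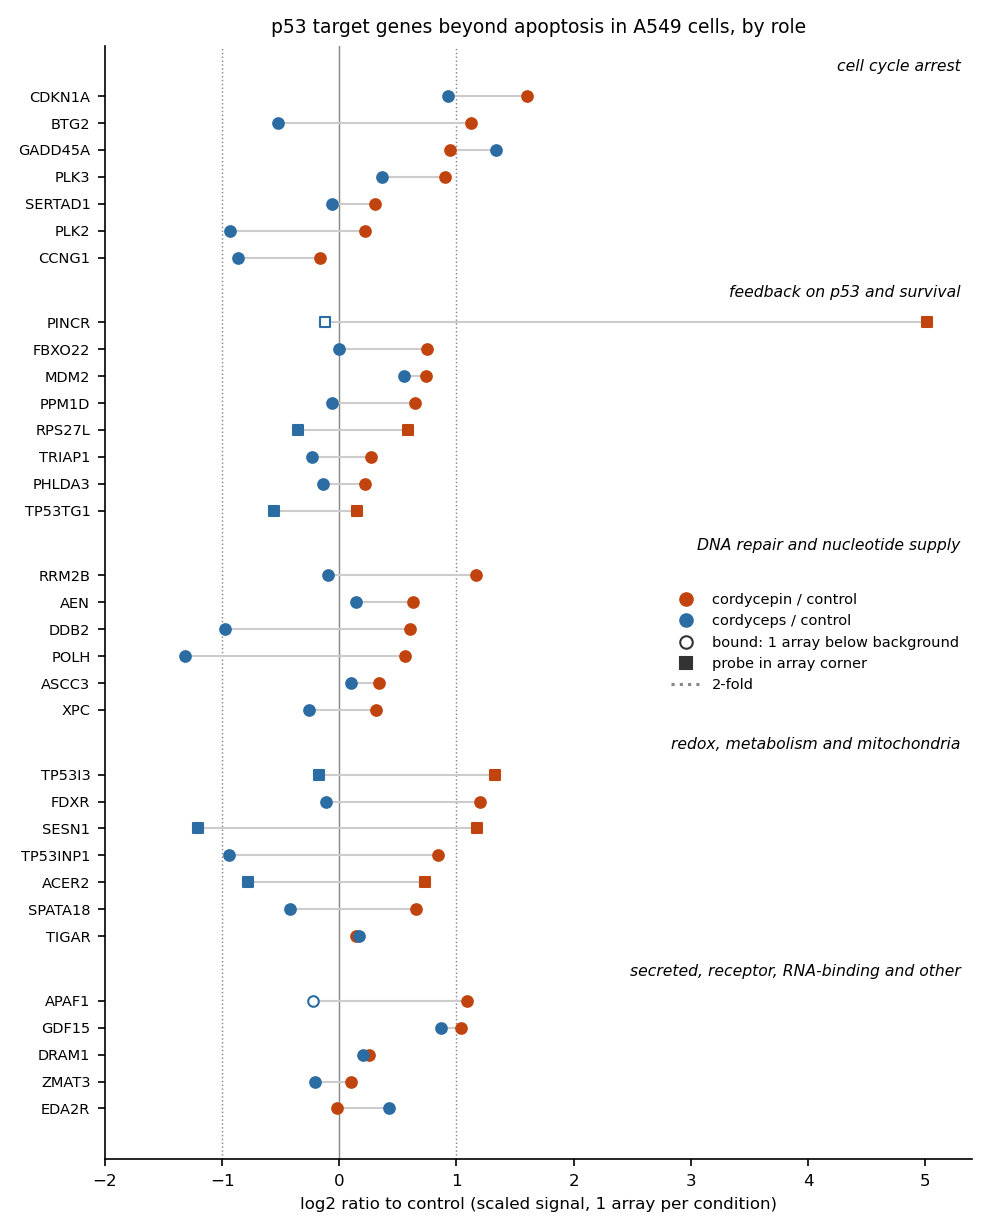
Log2 ratio to control of the 33 detected members (x axis), grouped by role (rows), with cordycepin in orange and cordyceps in blue; open symbols are bounds because cordyceps cells were below background, squares are probes in the affected array corner and dotted lines mark 2-fold. With cordycepin 31 of 33 members lie above 0 and PINCR stands alone at 5.02, while the cordyceps points lie between -1.31 and 1.34.

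Among the cell cycle arrest genes, CDKN1A encodes p21, the inhibitor of cyclin-dependent kinases. Its signal was 142 in control, 370 in cordycepin and 269 in cordyceps cells. Both treated arrays were above control, cordycepin by 1.60 on the log2 scale (3.03-fold, scanner error 0.21) and cordyceps by 0.92. BTG2, an antiproliferative protein that recruits deadenylases to mRNA, had 1036 in control, 1952 in cordycepin and 720 in cordyceps cells. It was 2.19-fold higher with cordycepin and had a ratio of -0.53 with cordyceps, so the treated arrays lie on either side of the control.

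GADD45A, a stress sensor that binds PCNA and p21, had a signal of 1868 in control, 3096 in cordycepin and 4733 in cordyceps cells. It was the only member at least 2-fold higher with cordyceps (2.53-fold), and with cordycepin its ratio of 0.94 lay just short of 2-fold. PLK3, a stress-responsive kinase, followed with 0.91 and 0.36. Its relative PLK2 had 9306, 9321 and 4866 in control, cordycepin and cordyceps cells, ratios of 0.22 and -0.94. CCNG1 (cyclin G1), a textbook p53 target that works with the phosphatase PP2A, did not go with the others: its signals were 1603, 1235 and 882 in the same order, ratios of -0.16 and -0.86. A second CCNG1 probe gave 0.21 and -0.93, so that the sign with cordycepin was not settled while the value with cordyceps was close on both. SERTAD1, a cofactor of CDK4 and E2F, had 0.30 and -0.06.

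Among the genes that feed back on p53 or favor survival, the largest ratio was that of PINCR, a long noncoding RNA that p53 induces and that helps it to keep arrest genes on. Its signal was 37.5 in control and 1048 in cordycepin cells, and 27.0 in cordyceps cells, which was below background. The 32.4-fold ratio (log2 5.02) was exceeded or equaled by 0.0254% of all genes. It rests on a single probe, with a control signal not far from the lowest that counted as well above background on that array (18.6), and normexp background correction lowered it to 3.55. The probe lies in the corner, where outlying background was found on the cordyceps array alone. TP53TG1, the other long noncoding p53 target of the list, had 4608 in control, 4407 in cordycepin and 3140 in cordyceps cells. Its ratio of 0.15 with cordycepin was small, and that of a second probe was -0.11.

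MDM2, the ubiquitin ligase that removes p53, was measured by 3 probes. They gave log2 ratios of 0.74, 0.74 and 0.84 with cordycepin and 0.55, 0.08 and 0.18 with cordyceps. The probes were close together with cordycepin and spread wider with cordyceps. PPM1D (Wip1), the phosphatase that shuts the DNA damage signal off, had 0.64 and -0.06, and a second probe 0.84 and -0.09. FBXO22, the ubiquitin ligase subunit that acts on p53, had 0.74 and 0.00, and its second probe 0.75 and 0.05. In these 3 genes every probe was above control with cordycepin and none reached 2-fold. The remaining members of the group were RPS27L, a ribosomal protein paralog (0.59 and -0.35), TRIAP1, a small mitochondrial survival protein (0.27 and -0.23), and PHLDA3, an inhibitor of Akt (0.22 and -0.14).

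RRM2B, the p53-inducible small subunit of ribonucleotide reductase, led the DNA repair and nucleotide supply genes. Its signal was 514 in control, 995 in cordycepin and 480 in cordyceps cells. The cordycepin array stood 2.25-fold above control, and a second probe gave a log2 ratio of 1.56; the cordyceps ratios of the probes were -0.10 and 0.02. DDB2, the damage sensor of global genome repair whose promoter holds the full site above, had 11407 in control, 14924 in cordycepin and 5818 in cordyceps cells. Its ratios of 0.60 and -0.97 lay close to those of a second probe, 0.74 and -0.92, which is in the disturbed corner. On both probes DDB2 was highest in cordycepin and lowest in cordyceps cells.

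POLH, the polymerase that copies past ultraviolet lesions, had 265 in control, 337 in cordycepin and 107 in cordyceps cells. It was 2.49-fold lower with cordyceps and had a ratio of 0.56 with cordycepin. A second POLH probe was above background in cordycepin cells alone. AEN, a nuclease induced by p53, had 0.63 and 0.14, with 0.56 and 0.24 from a second probe. XPC, the partner of DDB2 in lesion recognition, and ASCC3, a helicase used in alkylation repair, had 0.31 and 0.34 with cordycepin and -0.26 and 0.10 with cordyceps.

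In the redox, metabolism and mitochondria group 3 of the 7 members detected were at least 2-fold higher with cordycepin, beside 5.95% of all genes. Their median was 0.84, beside -0.05 for all genes. Outside the corner the count was 1 of 4, beside 6.1% of the genes there. With median scaling TP53I3 alone remained past 2-fold. TP53I3, a quinone oxidoreductase that makes reactive oxygen, had 7427 in control, 16040 in cordycepin and 6588 in cordyceps cells. The ratio of 2.50-fold with cordycepin came from a probe in the corner, and a second probe outside it gave a log2 ratio of 1.57. FDXR, the mitochondrial reductase that passes electrons to ferredoxin, had 30108 in control, 59780 in cordycepin and 27861 in cordyceps cells. It was 2.30-fold higher with cordycepin and at -0.11 with cordyceps.

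SESN1 (sestrin 1), an inhibitor of mTORC1, had 134 in control, 262 in cordycepin and 58.2 in cordyceps cells. It was 2.26-fold higher with the first and 2.31-fold lower with the second, but its only probe lies in the corner where the cordyceps array was disturbed. The SESN1 ratio with cordycepin was at least 2-fold in 7 of 10 other ways of processing, with a lowest log2 value of 0.82. TP53INP1, which takes part in autophagy, had 390 in control, 603 in cordycepin and 203 in cordyceps cells, ratios of 0.84 and -0.94. Its second probe gave 1.14 with cordycepin and was below background in cordyceps cells. ACER2, an alkaline ceramidase, had 0.73 from a corner probe and 1.40 from another probe outside it with cordycepin, which was the widest gap between 2 measured probes of a member. Both ACER2 probes were dim, with control signals of 64.7 and 27.9. The scanner error of the 1.40 ratio was 0.36. SPATA18, which serves mitochondrial quality control, had 0.66 and -0.42. TIGAR, a phosphatase that slows glycolysis, was near control with both treatments (0.15 and 0.17).

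GDF15, a secreted stress cytokine of the TGF-beta family, had 61694 in control, 109531 in cordycepin and 112812 in cordyceps cells. It was 2.06-fold higher with cordycepin and had a ratio of 0.87 with cordyceps, so that both treated arrays were above control and differed from each other by 0.17. APAF1, the scaffold of the apoptosome, had 40.3 in control, 74.0 in cordycepin and 21.5 in cordyceps cells, the last below background. Its 2.13-fold ratio with cordycepin came from a probe near background and was at least 2-fold in 8 of 11 other ways of processing. DRAM1, a lysosomal membrane protein of autophagy, had 0.25 and 0.21. ZMAT3, an RNA-binding regulator of splicing, had 0.10 and -0.20. EDA2R, a receptor of the tumor necrosis factor family, had -0.02 with cordycepin and 0.43 with cordyceps; its second probe gave 0.37 and 0.71.

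**Figure D2:**
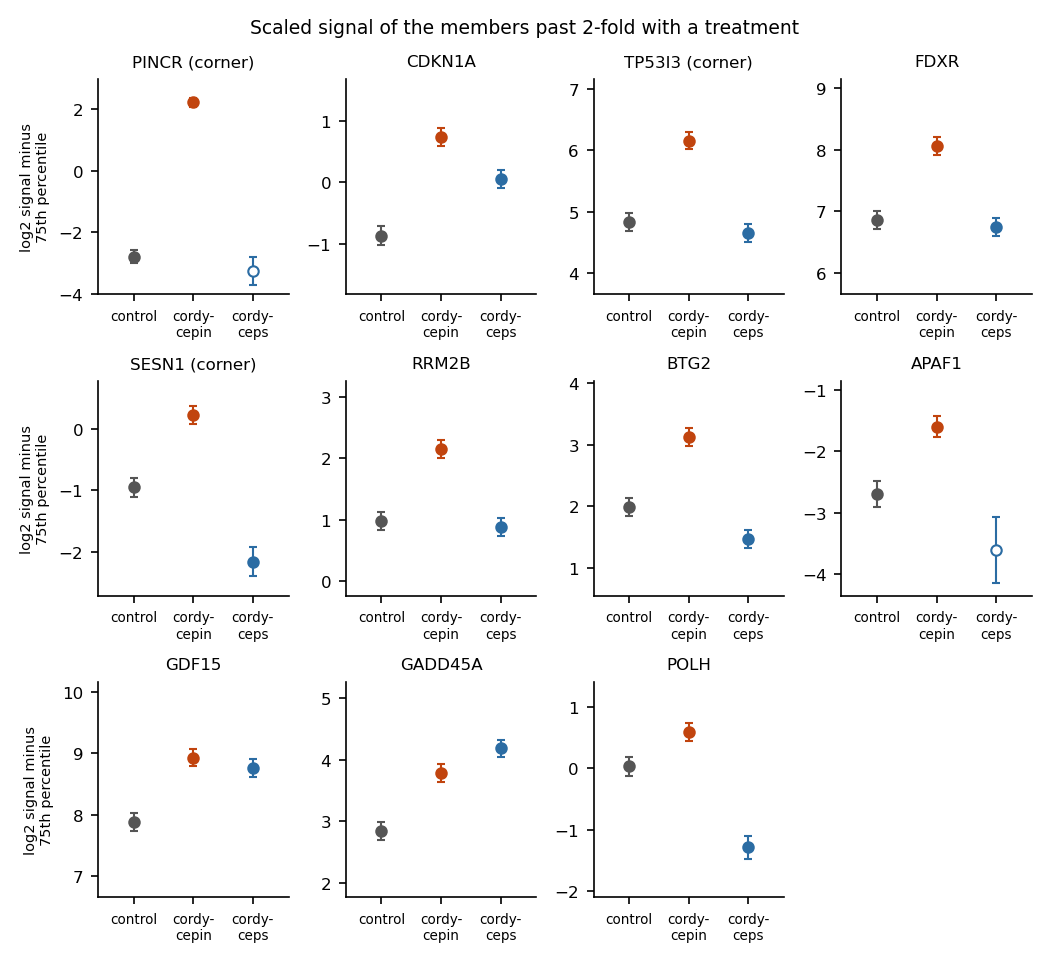
Signal of each of the 11 members at least 2-fold from control with a treatment, as log2 minus the array's 75th percentile (y axis), on the control, cordycepin and cordyceps arrays (x axis); bars are the scanner's error and open symbols lie below background. All panels span the same log2 range but that of PINCR, which is wider, and 9 of the 11 members reach 2-fold with cordycepin while GADD45A and POLH reach it with cordyceps alone.

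With cordyceps the members' counts and median lay near those of all genes. Of the 33 detected, 1 was at least 2-fold higher (GADD45A), against 4.19% of all 15602 genes measured, and 2 were at least 2-fold lower (POLH and SESN1), against 3.15%. A ratio above 0 was found in 10 members, beside 37.6% of all genes. That count depended on the processing. FBXO22 and SERTAD1, for example, reached 0.27 and 0.21 at their highest over the other ways of processing. The median of the members was -0.14 and that of all genes -0.12, a difference of -0.02 that ranged from -0.16 to 0.02 over 11 other ways of processing. Outside the corner, 1 of 27 members was higher and 1 was lower, beside 2.66% and 3.15% of the other genes. The members spread widely around that median. GADD45A, CDKN1A, GDF15 and MDM2 by its brightest probe were the highest, from 1.34 to 0.55. The other MDM2 probes gave 0.08 and 0.18. POLH, SESN1, DDB2, TP53INP1, PLK2 and CCNG1 were the lowest, from -1.31 to -0.86. With median scaling 3 members were at least 2-fold higher and 1 was lower.

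**Figure D3:**
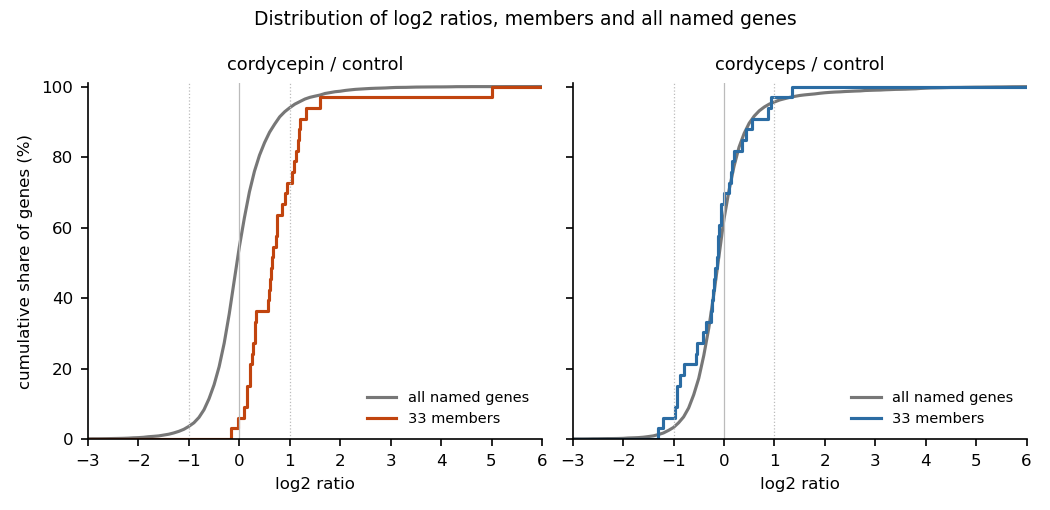
Cumulative share of genes in percent (y axis) at or below a log2 ratio to control (x axis) for all named genes (grey) and the 33 detected members (color), with cordycepin on the left and cordyceps on the right and dotted lines at 2-fold. The members' curve lies to the right of all genes with cordycepin, with medians of 0.64 and -0.05, and near it with cordyceps, with medians of -0.14 and -0.12.

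The comparisons above share the control array, so the treated arrays were also set against each other, at doses that differ (60 μg/mL cordycepin and 100 μg/mL cordyceps). Of the 33 members, 13 were at least 2-fold higher with cordycepin than with cordyceps (39.4%), against 7.75% of 15482 genes, and 0 were at least 2-fold lower, against 5.57%. A ratio above 0 was found in 30 members, beside 54.3% of all genes. That count depended on the processing as well. GDF15, DRAM1 and ASCC3, for example, fell to -0.36, -0.49 and -0.30 at their lowest. The largest log2 ratios were those of PINCR, at least 5.14, SESN1 (2.39), POLH (1.88), TP53INP1 (1.78), BTG2 (1.65) and DDB2 (1.57). CDKN1A, GDF15 and the brightest MDM2 probe differed less between the treatments (0.67, 0.17 and 0.19). The other MDM2 probes gave 0.67 and 0.66, so the size for MDM2 was not settled. GADD45A and EDA2R were lower with cordycepin (-0.40 and -0.45). The redox, metabolism and mitochondria genes held 6 of the 13, of which SESN1, TP53I3 and ACER2 rest on probes in the disturbed corner; outside the corner they held 3 of 9. With median scaling the count was 6, when 17.1% of all genes were at least 2-fold lower with cordycepin and 2.96% higher. Outside the corner 9 of 27 members were at least 2-fold higher and 0 lower, beside 7.82% and 4.1% of the genes there.

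The second probes give the only repeat of these measurements within an array. With cordycepin, 13 further probes of 12 members were well above background on both arrays; 10 had the sign of the brightest probe, and 12 lay within 0.49, the standard deviation of a difference between 2 probes. With cordyceps, 9 of 11 further probes had the same sign and all 11 lay within 0.48. RRM2B and TP53I3 were at least 2-fold higher with cordycepin on both of their probes.

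**Figure D4:**
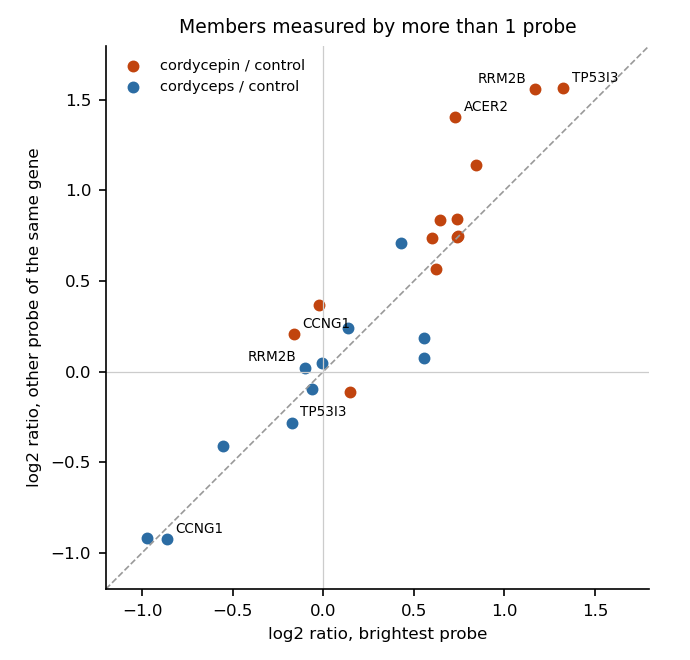
Log2 ratio to control of a member's brightest probe (x axis) against that of each other probe of the same gene (y axis), with cordycepin in orange and cordyceps in blue; the dashed line marks equal values. The cordycepin point farthest from the line is ACER2 (0.73 and 1.40), and RRM2B and TP53I3 lie beyond 1 on both axes.

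The genes around the members in the pathway were counted in the same way. The 3 probes of MDM4, the partner of MDM2, did not give the same picture. The brightest had 0.20 with cordycepin and -0.10 with cordyceps, another had 0.62 and 0.89, and the third, in the corner, had 0.69 and 1.26. Of 13 detected regulators of p53, with a median of -0.09, 0 were at least 2-fold higher with cordycepin, against 5.95% of all genes, and 2 were lower (15.4%), against 3.57%, a count that ranged from 1 to 4 over the other ways of processing. The 2 were CREBBP (-1.33), an acetyltransferase whose probe lies in the corner, and CDKN2A (-1.01). CDKN2A is known to be deleted in A549 cells: a probe of it was below background on all arrays, with signals of 4.6, 7.02 and 8.25, while its brightest probe had 4587, 1962 and 2881, and which transcript that probe reads was not tested. With cordyceps 1 of 14 was at least 2-fold higher, against 4.19% of all genes: TP73, a p53 relative, whose corner probe was above background on the cordyceps array alone (signals of 7.85, 7.38 and 111). A second TP73 probe outside the corner was below background on all arrays (21.2, 10.4 and 9.8).

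The p53 targets of apoptosis had a median of 0.13 with cordycepin and 0.00 with cordyceps over 12 detected genes. With cordycepin 0 were at least 2-fold higher, against 5.95% of all genes, and 1 was lower (8.33%, against 3.57%), BCL2L11, which encodes the death protein BIM. Its brightest probe had 2939 in control and 948 in cordycepin cells (log2 ratio -1.42), but its other probes gave -0.64 and 0.64, so that neither the size nor the sign was settled. With cordyceps 1 of the 12 (8.33%) was at least 2-fold higher, beside 4.19% of all genes, and the count ranged from 0 to 1 over the other ways of processing. It was TNFRSF10C, a decoy receptor of TRAIL, with dim signals of 55.2 in control and 122 in cordyceps cells (2.21-fold). Of 21 further p53 targets detected with cordycepin, 2 were at least 2-fold higher (9.52%) and 1 was lower (4.76%), shares near the 5.95% and 3.57% of all genes, with a median of 0.35. TRIM22, an antiviral ubiquitin ligase, had 45.5 in control and 159 in cordycepin cells (4.04-fold). E2F7, a repressor of cell cycle genes, had 329 in control, 875 in cordycepin and 136 in cordyceps cells, 3.08-fold higher with the first and 2.42-fold lower with the second. DDIT4, an inhibitor of mTORC1, was 2.48-fold lower with cordycepin. With cordyceps 1 was at least 2-fold higher and 3 were lower, E2F7 among them, beside 4.19% and 3.15% of all genes. The count lower ranged from 1 to 3 over the other ways of processing and was 1 with median scaling. SESN2, the paralog of SESN1, was 2.93-fold higher with 93.8 in control, 105 in cordycepin and 275 in cordyceps cells, and KITLG (stem cell factor) and PCNA (the replication clamp) were 2.31-fold and 2.28-fold lower.

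Of 14 detected cell cycle genes that p21 and DREAM repress, 0 were at least 2-fold lower with cordycepin, beside 3.57% of all genes. Of the 14, 13 had a ratio above 0, beside 45.5% of all genes, with a median of 0.49 and a highest value of 0.88 for CDK1. The median was 0.23 with median scaling. Relative to all genes it was 0.54, and 0.41 to 0.55 over the other ways of processing. The 3.03-fold CDKN1A ratio thus stood beside repressed targets of which only BIRC5 (survivin) had a ratio below 0 (-0.07). With cordyceps 10 of the 14 were at least 2-fold lower (3 with median scaling), beside 3.15% of all genes, with a median of -1.08. Relative to all genes the median was -0.96, and -1.13 to -0.92 over the other ways of processing. Set directly against cordyceps, all 14 were at least 2-fold higher with cordycepin, with a median of 1.57. The share was 39.4% for the members and 7.75% for all genes in that comparison. CCNB1, which encodes cyclin B1, had 5033 in control, 4950 in cordycepin and 2321 in cordyceps cells, and the mitotic kinase CDK1 had 2334, 3714 and 979. E2F1, the activator of replication genes, had 202 and 199 in control and cordycepin cells and was below background in cordyceps cells, at least 5.86-fold lower. Fewer cells of a kind and less RNA per cell cannot be told apart in such bulk samples.

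**Figure D5:**
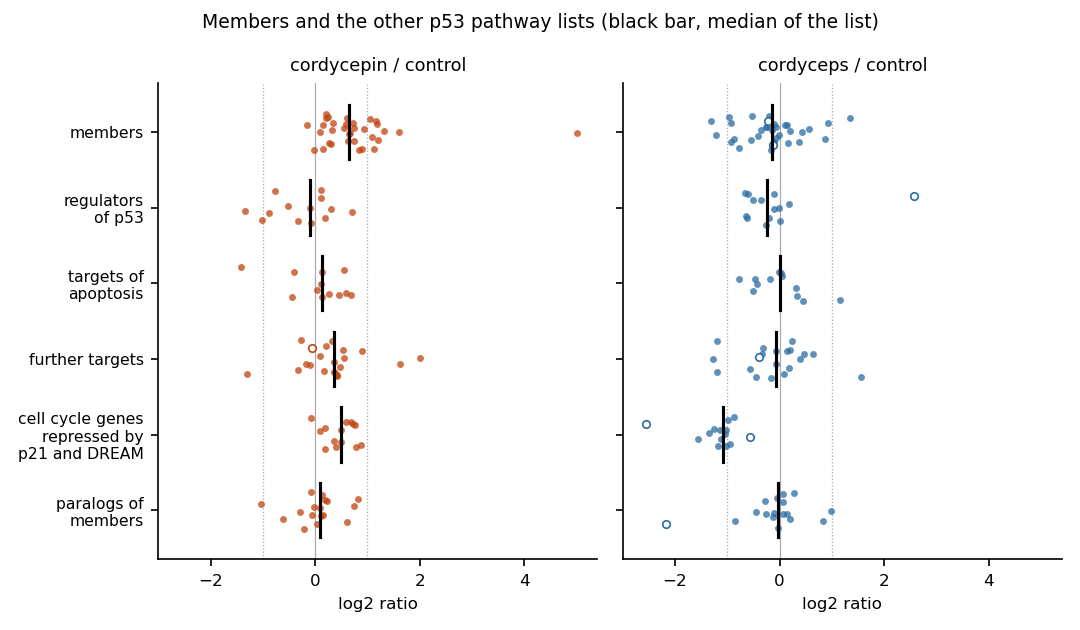
Log2 ratio to control (x axis) of each detected gene of the members and of the 5 other p53 pathway lists (rows), with cordycepin on the left and cordyceps on the right; open symbols are bounds, black bars are medians and dotted lines mark 2-fold. The members have the highest median with cordycepin (0.64), and the cell cycle genes repressed by p21 and DREAM have the lowest median with cordyceps (-1.08).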

How the data were processed

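RNA of A549 cells was hybridized to 1 single-color Agilent array per condition. The authors deposited scanner files whose intensity values were background-subtracted by Feature Extraction 11.5.1.1, unscaled between arrays, with the deposited flags for outliers, saturation (0 spots) and signal above background; a deposited value table held the same intensity values (at most 9 probes differed by over 0.01%). The methods name GeneSpring for normalization. The authors' array design uses hg19.

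Members and lists were chosen with earlier results of these data known. Any member could be named; genes of the other lists were named at 2-fold with either treatment, or as MDM4, CDKN2A or the nearest paralog of a member. 2 genes of these lists are not reported here. Outlier spots were left out, spots of a probe were averaged as log2, and each array's 75th percentile was subtracted. Probes were named through RefSeq (31097 of 58191), and a gene took its brightest probe. Detection on an array required the well-above-background flag on 50% or more of a probe's spots. A 2-fold change was called from a measured ratio, or from a bound where 1 array was below background: the bright array against the higher of the dim signal and the lowest signal well above background there (18.6, 21.8 and 34.5 on the control, cordycepin and cordyceps arrays). Such a bound is written "at least". No test was run, since precision is limited by having 1 array per condition. Calling was tested on simulated data, with planted changes larger than the 2-fold cutoff, in bright probes and with noise below the spread between probes given above. It was not tried on changes near 2-fold or in dim probes. Alternatives were other scalings, normexp background correction (limma 3.58.1, R 4.3.3), probe choice, detection, the corner and thresholds. Python 3.11.15, numpy 2.4.6 and pandas 2.3.3 were used.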

Additional observations from a re-analysis of the deposited data

How the results depend on the processing

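With 1 array per condition, the limits are the scaling of the arrays, the corner of the cordyceps array and dim probes. No member detected with a ratio past 2-fold changed sign under any alternative of processing that gave it a value (9 to 11 each), and no member was at least 2-fold lower with cordycepin, against control or cordyceps, under any of the 13 alternatives with the thresholds included. No paired analysis was possible because each condition has 1 array.

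Members at least 2-fold higher with cordycepin numbered 9, and 3 with median scaling, 3 without scaling, 20 at 1.5-fold and 2 at 3-fold, where 13.3% and 2.45% of all genes were called. With cordyceps the count higher was 1, and 3 with median scaling, 2 with the 75th percentile over detected probes, 2 without the corner, 3 at 1.5-fold and 0 at 3-fold; the count lower was 2, and 1 with median scaling, 0 with normexp, 1 without the corner, 7 at 1.5-fold and 0 at 3-fold. Against cordyceps the cordycepin count was 13, and 6 with median scaling, 8 without the corner and 5 at 3-fold. Among all genes, median scaling changed the shares higher and lower with cordycepin from 5.95% and 3.57% to 3.74% and 7.41%, and those with cordyceps from 4.19% and 3.15% to 6.17% and 1.33%. It moved the median of all genes to -0.31 with cordycepin and 0.16 with cordyceps.

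Medians near 0 changed sign. With cordyceps the members' median became 0.13 with median scaling and 0.015 without the corner. The alternatives for the other lists and for second probes were chosen after seeing the data. With median scaling the medians became 0.036 (regulators), 0.20 (further targets) and 0.24 (paralogs) with cordyceps, and -0.13 (targets of apoptosis) and -0.16 (paralogs) with cordycepin. Without scaling those of the targets of apoptosis and the paralogs with cordycepin became -0.083 and -0.11, and with the median over probes those of the paralogs and the regulators became -0.057 and 0.0035. With cordyceps, the 75th percentile over detected probes gave 0.019 (further targets) and 0.062 (paralogs), and leaving out the corner gave 0.12 and 0.085. For the paralogs with cordyceps, quantile normalization gave 0.024 and detection on both arrays 0.013. Second probes with the sign of the brightest with cordycepin numbered 6 of 8 without the corner. The cause of these changes beyond the shift of all genes and the fewer probes was not tested.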

Other observations

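The nearest relatives of the members were looked up as a set, because several carry out the same reaction without being classical p53 targets. Of 18 detected paralogs, 0 were at least 2-fold higher with cordycepin, beside 5.95% of all genes, and 1 was lower (5.56%), beside 3.57%, with a median log2 ratio of 0.09. RRM2, the cell cycle-regulated counterpart of RRM2B, had a signal of 160 in control and 162 in cordycepin cells, a ratio of 0.23, where RRM2B had 1.17. In cordyceps cells RRM2 was below background and at least 4.54-fold lower than in control, where RRM2B had -0.10. ACER3, an alkaline ceramidase like ACER2, had 140 in control and 59 in cordycepin cells and was 2.05-fold lower, while the dim ACER2 probes had 0.73 and 1.40. ACER3 was the 1 paralog called lower, a count that ranged from 0 to 1 over the other ways of processing.

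With cordycepin the other pairs went both ways. BTG1 had a ratio of -0.02, beside 1.13 for BTG2. CDKN1B, which encodes p27, had -0.61, beside 1.60 for CDKN1A. RPS27, whose protein is nearly identical to that of RPS27L, had -0.08 with cordycepin and 0.06 with cordyceps, beside 0.59 and -0.35; whether the probes separate these transcripts was not tested. GADD45B had -0.06 and 0.06 and GADD45G 0.75 and 0.82, beside 0.94 and 1.34 for GADD45A. The GADD45G and GADD45A ratios with cordycepin lay within the standard deviation of a difference between 2 probes, 0.49. SERTAD2 had 0.82 with cordycepin, beside 0.30 for SERTAD1. PHLDA2 had 0.61 and PHLDA1 0.16, beside 0.22 for PHLDA3. CCNG2 had 0.14, beside -0.16 for CCNG1 on its brightest probe and 0.21 on its second. The CCNG2 and CCNG1 ratios lay within 0.49 of each other, as did those of PHLDA1, PHLDA2 and PHLDA3. PLK1 had no named probe. TP53I11 had 1 probe at -0.34 and another at 1.33 with cordycepin, a gap wider than that between any measured probes of a member; its brightest probe is the first.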
